A study of Mus musculus with 12 samples.

Results

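The genes described here are 49 genes of DNA replication and of the supply of its nucleotides, chosen by name from the 34745 genes whose reads were counted in femoral bone marrow of mice. They fall into 8 roles: origin licensing (5 genes), the replicative helicase and its activators (13), the sliding clamp and its loader (6), DNA polymerases and primase (9), single-strand binding and strand maturation (5), nucleotide supply (5), chromatin assembly (3) and entry into S phase (3). All 49 were found by name, and all 49 passed the filter on low counts in each of 6 comparisons, with at least 54 counts in every library. Each library came from a male mouse of the outbred ICR strain, and each of 4 groups held 3 of them. Normal mice received saline and no cyclophosphamide. Model mice received vehicle and, on days 5 to 7, cyclophosphamide at 80 mg/kg per day, which alkylates DNA and is toxic to cells that divide. QJSB mice had the same cyclophosphamide doses plus the Qi-Jing-Sheng-Bai granule, a Chinese herbal formula, at 3 g/kg per day by mouth for 1 week. Leucogen mice had these doses plus leucogen, a drug used against low leucocyte counts, at 20 mg/kg per day by mouth for 1 week. All 3 groups other than normal thus carried cyclophosphamide, and the age of the mice was not given in the sources used here. The RNA was that of all marrow cells eluted from the femur, so that the level of a gene reflects a mixture of cell types.

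Before a cell copies its DNA, the origin recognition complex with Cdc6 and Cdt1 loads the ring of Mcm2 to Mcm7 onto origins, and cyclin E with Cdk2 then helps to switch the rings into active helicases. Polymerase alpha with primase starts each strand, clamp loader and clamp hold polymerases delta and epsilon on the template, and Fen1 and Lig1 join the fragments of the lagging strand. Ribonucleotide reductase, thymidylate synthase and thymidine kinase supply the deoxynucleotides, and in marrow the demand for them comes from dividing precursors of red cells, granulocytes and B cells.

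Total counts ranged from 11172547 in leucogen 3 to 18545198 in QJSB 2. Levels are given as CPM, which are counts scaled to a common library size, with TMM scaling, a trimmed mean of the ratios between libraries. Changes are log2 fold changes of the first group over the second, with the standard error after ±, from edgeR's quasi-likelihood test on the libraries of the groups compared, and p-values were adjusted over all genes tested by the Benjamini-Hochberg method. A gene is called when its adjusted p is under 0.05 and its change at least 1.5-fold. With 3 mice a group, p-values measure the spread between these mice only. In RNA of whole marrow, fewer cells of a type and less RNA per cell cannot be told apart. Within groups, normal libraries were the closest, with a median coefficient of variation of 6.28% over the 49 genes, against 15.8% in model, 11.4% in QJSB and 9.40% in leucogen. Library model 3 had the highest level of its group for 35 of the 49 genes and model 2 the lowest for 26. Library QJSB 1 had the highest for 31.

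Per length of transcript, Rrm1, the large subunit of ribonucleotide reductase, had the highest level in normal marrow, with a mean of 138 fragments per kilobase and depth (FPKM, the authors' deposited values). Rrm2 followed with 84.2 FPKM, and Mcm5 was at rank 3. Pold2, an accessory subunit of polymerase delta, had the lowest at 2.70 FPKM, and Gins2 the next at 3.18 FPKM. In leucogen marrow Rrm1 was again first, at 61.8 FPKM, but Mcm2 stood at rank 26 of 49 against rank 11 in normal. Cdc45 stood at rank 9 against rank 15. Ccne2, a cyclin E gene, was at rank 31 in model and rank 10 in leucogen.

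In model marrow, given cyclophosphamide alone, a few replication genes were lower than in normal marrow, among them genes that act before or at the start of S phase. Orc1, Ccne1 and Ccne2 had under 1 count for every 2 in normal, Cdc6, Pcna, Pola1 and Rrm1 fell less, and Cdc45 and Pold2 rose. Of the 49 genes, 9 (18.4%) were called, 2 higher and 7 lower in model, where 35.1% of all 14752 genes tested were called, 16.1% higher and 19% lower. The median change of the 49 was -0.05, beside 0.02 over all genes, and single changes ran from -1.17 to 0.94. The model and normal libraries did not overlap for 19 of the 49 genes, or 38.8%, against 55.5% of all genes. By role, licensing had 2 of 5 genes called lower, S phase entry 2 of 3, nucleotide supply, clamp and polymerases 1 each, and strand maturation and chromatin none. At an unadjusted p under 0.05, strand maturation and chromatin had 0 of their 8 genes in edgeR. The 4 calls of Orc1, Ccne1, Ccne2 and Pcna held in all 14 alternative fits. Those of Pold2 and Cdc45 did not pass without model 3 or without any of the normal libraries (Pold2 also without model 1). Rrm1 did not pass without model 1, model 3 or normal 1, Pola1 without model 3, and Cdc6 without model 2 or normal 3. With the trend of each library on GC content removed, Pola1 and Rrm1 were not called. With the replicate number as a block as well, Cdc45 was not called either. With scaling by total counts alone, the median of all genes shifted by 0.12, and 3 of the 49 genes were called higher and 4 lower. Pola1, Rrm1 and Cdc6 were not among them.

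**Figure D1:**
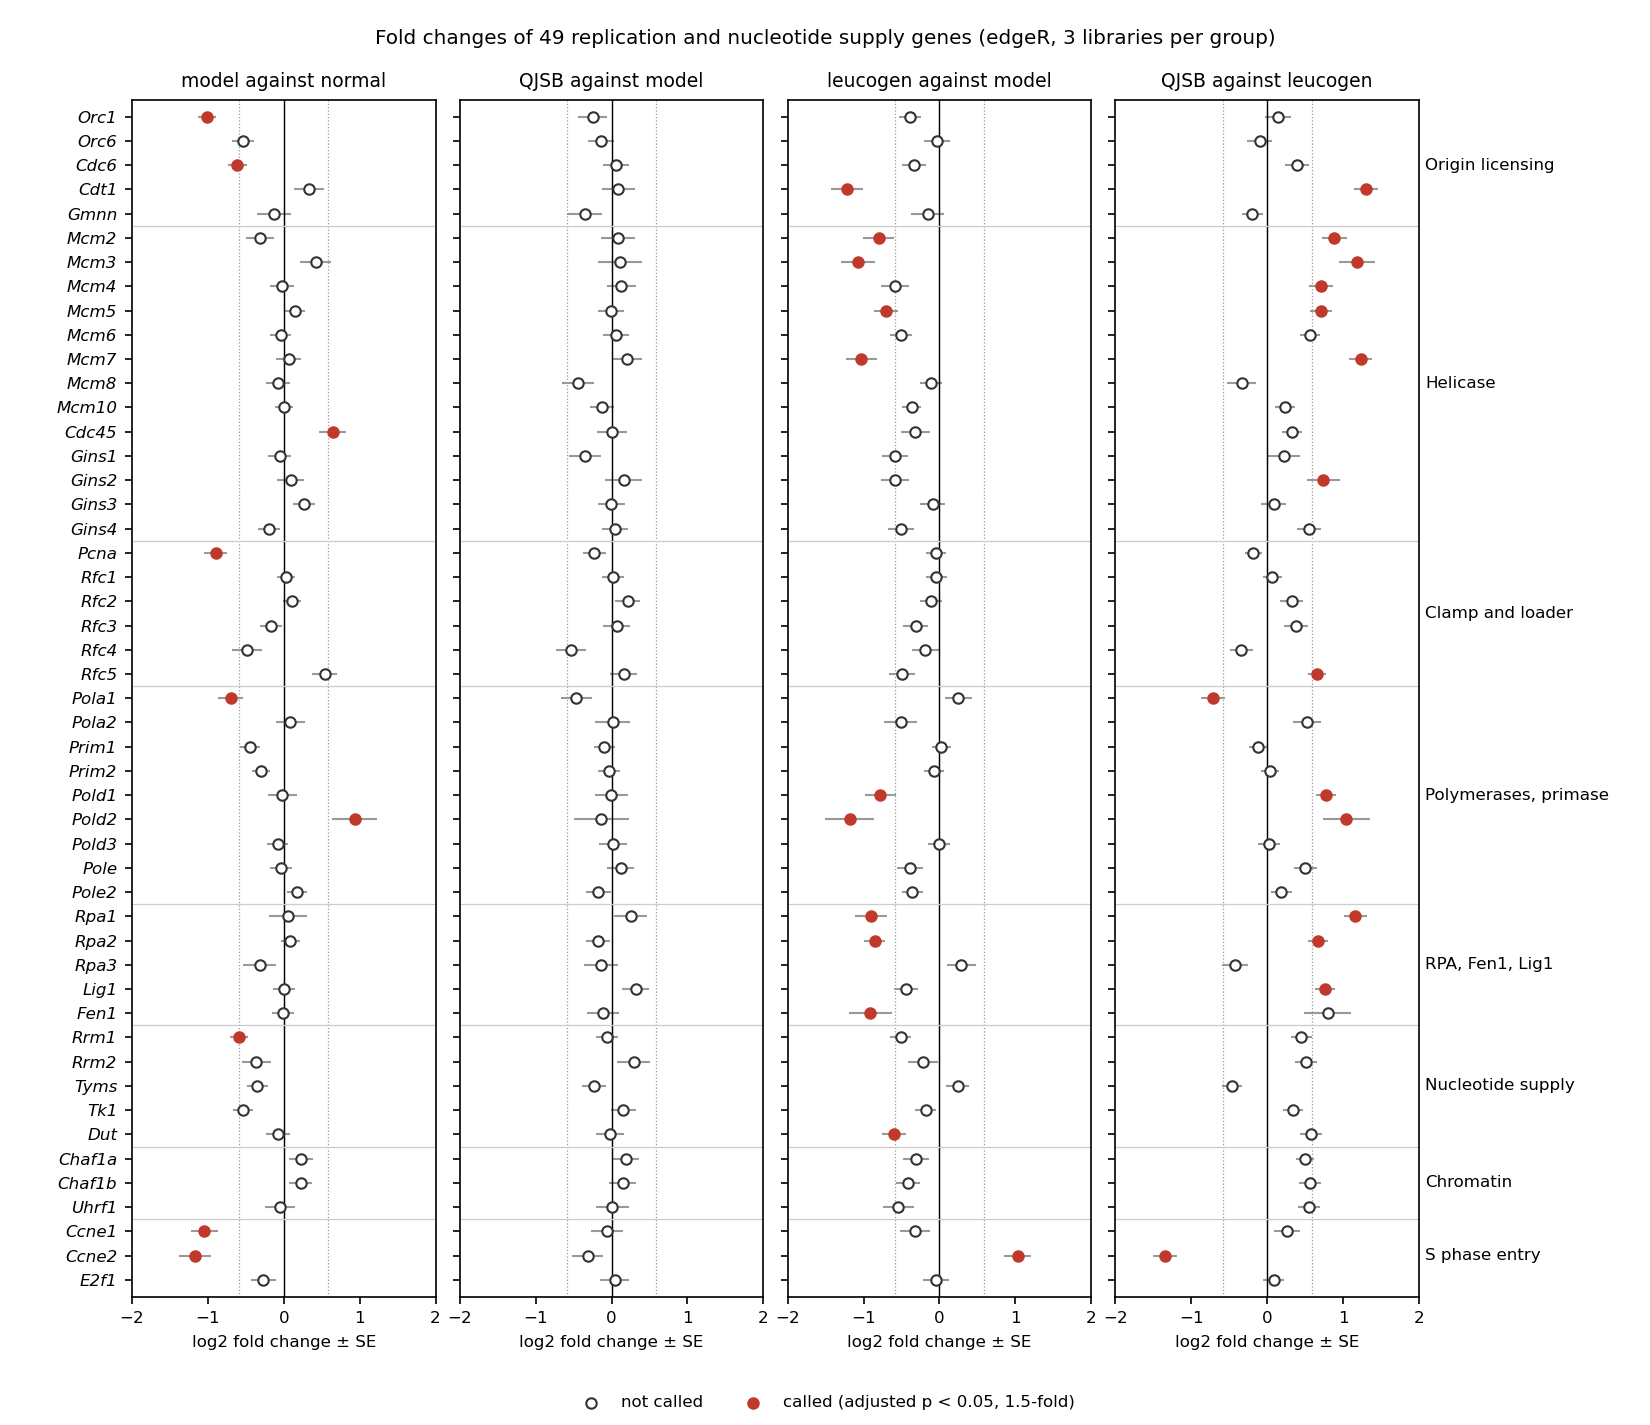
Log2 fold changes of the 49 genes (x axis, with bars of 1 standard error) in 4 comparisons, ordered by role on the y axis, with 3 libraries a group. Filled points were called by edgeR (adjusted p under 0.05 with at least 1.5-fold, dotted lines). The points of QJSB against model lie between -0.53 and 0.32 with none called, whereas 44 of the 49 points of leucogen against model lie below 0.

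Between QJSB and model none of the 49 genes was called, and their changes ranged from -0.53 for Rfc4 to 0.32 for Lig1. The median was 0.00, with 25 genes above 0 and 24 below. Over all 14486 genes tested, edgeR called 0 as well (0% of genes), so that the count for the replication genes is that of the background. At an unadjusted p under 0.05, edgeR had 2 of the 49 genes, Rfc4 and Pola1, both lower in QJSB, and 4.99% of all genes. DESeq2 called 0 of the 49 (1 at an unadjusted p under 0.05) and 8 of all genes. The smallest edgeR adjusted p among the 49 was 0.767, and no setting tried gave a call among them. With the replicate number as a block, edgeR called 18 of all genes and 0 of the 49, of which 3 were under an unadjusted p of 0.05 and the smallest adjusted p was 0.477. Standard errors ran from 0.14 to 0.36 on the log2 scale.

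Leucogen marrow had less RNA than model marrow of Mcm2, Mcm3, Mcm5 and Mcm7 of the helicase ring, of Pold1 and Pold2 of polymerase delta and of Rpa1 and Rpa2 of the single-strand binding protein, and more of Ccne2. With the trend of each library on GC content removed, Mcm2, Mcm5, Pold1, Fen1 and Dut were not called. Of the 49 genes, 11 were called lower (22.4%, against 11.5% of all 14184 genes tested) and 1 higher (2.04%, against 11.6%). In either direction the share was 24.5% beside 23.1%. The median change of the 49 was -0.36, beside -0.05 over all genes, and 44 of the 49 were below 0. The genes called lower were Cdt1, Mcm2, Mcm3, Mcm5, Mcm7, Pold1, Pold2, Rpa1, Rpa2, Fen1 and Dut. The libraries did not overlap for 25 genes that were lower in leucogen (51%, against 23.8% of all genes) and for 1 that was higher (2.04%, against 22.2%). The calls of Cdt1, Mcm7, Rpa2 and Ccne2 held in all 14 alternatives, while 6 genes were called without leucogen 1, 5 without leucogen 3 and 6 without model 3. Calls over all genes were also fewer in these fits, at 1724 of 14611, 1239 of 14680 and 2728 of 14475 genes tested, against 3276 of 14184 with all libraries. Scaled by total counts, which moved the median of all genes by -0.17, 22 genes were called, 21 of them lower, and 3805 of all genes.

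The direct comparison of the 2 drug groups tests whether their changes against the shared model libraries differed. In QJSB marrow 13 of the 49 genes were higher than in leucogen marrow (26.5%, against 12.9% of all 14266 genes tested), and 2, Ccne2 and Pola1, were lower (4.08%, against 11.7%), beside 24.6% of all genes in either direction. Those higher were Cdt1, Mcm2, Mcm3, Mcm4, Mcm5, Mcm7, Gins2, Rfc5, Pold1, Pold2, Rpa1, Rpa2 and Lig1. The median change of the 49 was 0.39, beside 0.03 over all genes. The calls of Cdt1, Mcm7, Rpa1 and Ccne2 held in all 14 alternatives. Without leucogen 3, 9 of the 49 and 1544 of 14773 genes tested were called, against 3511 of 14266 with all libraries. With the trend of each library on GC content removed, 9 of the 49 were called (7 higher and 2 lower).

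The drug groups were also set against normal marrow. QJSB had 3 genes called higher and 8 lower (22.4% of the 49, beside 37.9% of all genes), with a median of -0.07. Over all genes 18% were higher and 19.9% lower. The genes were Cdc45, Pold2 and Rfc5 in the one direction and Orc1, Orc6, Ccne1, Ccne2, Pcna, Rfc4, Pola1 and Rrm1 in the other. With the trend on GC content removed, 1 was called higher and 9 lower, beside 33.3% of all genes called. Of the 11 calls 7 were shared. Pold2, Rfc5, Orc6 and Rrm1 were lost, and Cdc6, Tyms and Tk1 were called instead. The rise of Pold2 did not pass without QJSB 1, QJSB 2 or any of the normal libraries. Leucogen had 19 genes called lower (38.8%, beside 19.8% of all genes) and 0 higher (beside 17.8%) by edgeR, where 37.7% of all genes were called in either direction, with 1 higher at an unadjusted p under 0.05 and 0 called higher by DESeq2. Its median was -0.48, beside -0.01 over all genes, and its libraries lay below every normal library for 38 of the 49 genes (77.6%, against 32.2%). The 19 were Orc1, Cdc6, Cdt1, Mcm2, Mcm3, Mcm4, Mcm7, Gins1, Gins4, Pcna, Rfc4, Pold1, Rpa1, Rpa2, Fen1, Rrm1, Tk1, Dut and Ccne1, and 13 of these calls held in all 14 alternatives. Leaving out a library removed Fen1 (without leucogen 2 or any of the normal libraries), Mcm4 (leucogen 1, normal 1), Gins1 (leucogen 3, normal 2), Mcm3 (leucogen 3) and Rfc4 (normal 2). The comparisons share libraries, so their values are not independent of each other.

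Promoter sequence was looked up because several of these genes were called lower in leucogen. E2F factors, which are held back by the retinoblastoma protein until a cell commits to S phase, bind sites in the promoters of many replication genes. In the RefSeq sequences (GRCm38.p6, 250 bases before to 50 after a start), 40 of the 49 genes had an entry. The E2F words searched on both strands were TTTCCCGC, TTTCGCGC, TTTGCCGC and TTTGGCGC, and 16 of the 40 genes (40%) held at least 1, against 4.57% of the 10038 tested genes with an entry and 2.605% of all 27025. The word CCAAT stood in 24 of the 40 (60%, against 42.9% of tested genes), the GC box GGGCGG in 32 (80%, against 66.3%) and TTTGAA in 5 (12.5%, against 14.5%). A match of letters is not a bound site. Shown are 3 licensing genes and 3 genes of the helicase ring with a word, Pola1, which was lower in QJSB than in leucogen, and for contrast Mcm2, a gene of the same ring without a word. Capitals mark the E2F words, which read as their reverse complement where they lie on the other strand, and overlapping words join into 1 run in Mcm5.
Orc1, chr4:108579204-108579503, + strand: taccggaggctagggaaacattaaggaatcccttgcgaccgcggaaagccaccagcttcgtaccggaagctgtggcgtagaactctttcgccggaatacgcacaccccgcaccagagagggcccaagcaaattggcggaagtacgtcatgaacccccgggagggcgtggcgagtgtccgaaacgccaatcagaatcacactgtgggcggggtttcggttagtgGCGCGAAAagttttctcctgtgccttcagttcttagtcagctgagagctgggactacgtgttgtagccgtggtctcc
Cdc6, chr11:98907901-98908200, + strand: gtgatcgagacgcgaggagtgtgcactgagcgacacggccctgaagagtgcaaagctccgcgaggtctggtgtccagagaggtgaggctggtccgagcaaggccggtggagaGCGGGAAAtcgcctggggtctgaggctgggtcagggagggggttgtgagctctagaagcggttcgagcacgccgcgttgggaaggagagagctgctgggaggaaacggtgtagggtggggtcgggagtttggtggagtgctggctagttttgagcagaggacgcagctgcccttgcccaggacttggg
Cdt1, chr8:122567765-122568064, + strand: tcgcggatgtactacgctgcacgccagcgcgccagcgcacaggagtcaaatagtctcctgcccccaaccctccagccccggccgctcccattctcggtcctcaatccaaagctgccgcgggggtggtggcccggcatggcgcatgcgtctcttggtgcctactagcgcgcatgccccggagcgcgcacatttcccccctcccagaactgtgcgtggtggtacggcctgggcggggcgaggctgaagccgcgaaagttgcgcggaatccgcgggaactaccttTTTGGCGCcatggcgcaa
Mcm3, chr1:20820263-20820562, - strand: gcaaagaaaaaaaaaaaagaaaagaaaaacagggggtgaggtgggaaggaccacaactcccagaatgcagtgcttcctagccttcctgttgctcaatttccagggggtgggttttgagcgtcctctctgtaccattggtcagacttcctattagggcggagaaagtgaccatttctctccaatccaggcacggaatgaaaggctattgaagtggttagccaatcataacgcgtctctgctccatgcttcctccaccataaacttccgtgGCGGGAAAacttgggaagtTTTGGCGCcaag
Mcm5, chr8:75109259-75109558, + strand: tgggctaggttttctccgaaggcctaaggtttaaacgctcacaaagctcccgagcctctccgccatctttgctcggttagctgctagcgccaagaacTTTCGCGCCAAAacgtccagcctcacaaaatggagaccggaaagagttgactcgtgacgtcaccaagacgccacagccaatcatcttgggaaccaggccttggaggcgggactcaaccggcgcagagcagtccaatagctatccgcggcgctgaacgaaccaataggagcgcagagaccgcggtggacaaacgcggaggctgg
Mcm7, chr5:138171834-138172133, - strand: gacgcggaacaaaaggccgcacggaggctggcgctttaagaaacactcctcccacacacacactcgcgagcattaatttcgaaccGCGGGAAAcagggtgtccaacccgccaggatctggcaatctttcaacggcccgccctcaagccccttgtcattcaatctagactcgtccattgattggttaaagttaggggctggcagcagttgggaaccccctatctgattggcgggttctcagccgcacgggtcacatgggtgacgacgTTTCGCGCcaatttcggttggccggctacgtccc
Pola1, chrX:93632106-93632405, - strand: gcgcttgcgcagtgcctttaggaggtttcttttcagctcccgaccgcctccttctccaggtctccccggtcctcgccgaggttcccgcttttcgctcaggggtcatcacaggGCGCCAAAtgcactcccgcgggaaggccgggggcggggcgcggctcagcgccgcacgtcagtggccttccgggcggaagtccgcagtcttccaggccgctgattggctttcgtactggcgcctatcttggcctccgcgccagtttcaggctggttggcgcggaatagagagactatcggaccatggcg
Mcm2, chr6:88898731-88899030, - strand: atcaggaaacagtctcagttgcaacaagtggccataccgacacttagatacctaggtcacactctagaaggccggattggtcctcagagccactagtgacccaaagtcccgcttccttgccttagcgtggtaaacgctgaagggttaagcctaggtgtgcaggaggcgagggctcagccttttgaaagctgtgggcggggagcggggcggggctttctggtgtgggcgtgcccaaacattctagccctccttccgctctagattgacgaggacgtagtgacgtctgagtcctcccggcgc
The words of Mcm3 start 20 and 39 bases and that of Cdt1 33 bases after the annotated start, and those of Orc1, Cdc6 and Pola1 start 27, 138 and 138 bases before it. At the start of Mcm7 shown, words lie 165 bases before and 17 after it. Of the 16 genes with a word, 5 were called lower in leucogen than in model, with a median of -0.42, and 6 of the 24 without a word, with a median of -0.32. In model against normal 3 of 16 and 3 of 24 were called lower, with medians of -0.03 and -0.17. Over all genes tested, 11.5% were called lower in leucogen against model and 19% in model against normal.

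Of the licensing genes, Orc1, the largest subunit of the origin recognition complex (ENSMUSG00000028587, GRCm38 chromosome 4, 108579423 to 108614833), had 70.2, 70.0 and 67.7 CPM in normal, 32.9, 32.6 and 37.4 in model, 34.3, 23.9 and 29.2 in QJSB and 24.0, 26.5 and 27.5 in leucogen. Every normal library lay above every other library. The change of model against normal was -1.01 ± 0.12 (adjusted p = 0.000379), and that of leucogen against normal -1.39 ± 0.10 (adjusted p = 1.79e-06). Cdc6, which helps to load the helicase, had 85.5, 90.4 and 94.5 CPM in normal, 58.4, 52.1 and 65.9 in model, 69.1, 54.0 and 61.9 in QJSB and 39.8, 52.0 and 47.1 in leucogen. It was lower in model than in normal (-0.61 ± 0.13, adjusted p = 0.00605) and lower in leucogen than in normal (-0.94 ± 0.11, adjusted p = 6.07e-05), and in QJSB its change from normal was -0.53 ± 0.13 (adjusted p = 0.0112), short of 1.5-fold. Cdt1, its partner in loading (ENSMUSG00000006585, GRCm38 chromosome 8, 122568015 to 122573128), had another order of groups, with 50.2, 41.9 and 49.1 CPM in normal, 60.1, 42.8 and 74.8 in model, 71.6, 63.4 and 56.0 in QJSB and 25.1, 29.1 and 21.9 in leucogen. All 3 leucogen libraries lay below all others. The change was -1.22 ± 0.21 (adjusted p = 0.00601) in leucogen against model and 1.30 ± 0.16 (adjusted p = 0.00285) in QJSB against leucogen, whereas model against normal gave 0.34 ± 0.20 (adjusted p = 0.213), with model 2 between the normal libraries. Gmnn, which encodes geminin, the inhibitor of Cdt1, had 41.8, 50.7 and 43.6 CPM in normal, 31.7, 56.4 and 36.2 in model, 34.9, 33.6 and 29.8 in QJSB and 34.1, 36.6 and 40.5 in leucogen and was called in no comparison. The ratio of Cdt1 to Gmnn in CPM within a library, looked at after the values were seen, was 1.88 to 2.05 in QJSB and 0.540 to 0.796 in leucogen, while model, at 0.759 to 2.07, overlapped both. Orc6 ranged from 33.3 to 40.0 CPM in normal and from 21.6 to 28.3 CPM in the other groups.

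The 6 genes of the helicase ring, Mcm2 to Mcm7, had their lowest mean levels in leucogen. None of the 6 was called in model against normal, where their changes ran from -0.31 to 0.42. In leucogen against model all 6 had an edgeR adjusted p under 0.05, and the changes of Mcm4 (-0.58) and Mcm6 (-0.50) fell short of 1.5-fold. Mcm7 (ENSMUSG00000029730, GRCm38 chromosome 5, 138164583 to 138172422) had 204, 204 and 209 CPM in normal, 237, 159 and 249 in model, 269.5, 252 and 229 in QJSB and 93.1, 126 and 95.9 in leucogen. Its lowest library outside leucogen, model 2, lay above the highest leucogen library, and the change was -1.03 ± 0.20 (adjusted p = 0.00798) against model and -0.95 ± 0.11 (adjusted p = 7.14e-05) against normal. Mcm3 had 133, 124 and 126 CPM in normal, 211, 114 and 187 in model, 260.3, 158 and 139 in QJSB and 76.9, 93.1 and 71.3 in leucogen, a wide spread in model and QJSB, and changed by -1.08 ± 0.22 (adjusted p = 0.0104) in leucogen against model. Mcm2 had 244, 240.3 and 232 CPM in normal, 205, 138 and 232 in model, 248, 191 and 177 in QJSB and 99.6, 127 and 102 in leucogen. Here model 2 was the closest to leucogen, and the change was -0.80 ± 0.20 (adjusted p = 0.0196). Mcm5 had 289.8, 291 and 256 CPM in normal, 301, 262 and 359 in model, 343, 296 and 291 in QJSB and 166, 215 and 182 in leucogen, with a change of -0.70 ± 0.16 (adjusted p = 0.0142). In QJSB against leucogen the changes were 1.23 for Mcm7, 1.18 for Mcm3, 0.89 for Mcm2, 0.71 for Mcm4 and 0.70 for Mcm5, all called, and 0.56 for Mcm6, short of 1.5-fold.

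The activators of the ring are given next. Cdc45, which joins the ring with the GINS proteins to form the active helicase, had 69.9, 69.0 and 60.6 CPM in normal, 87.1, 89.9 and 134 in model, 101, 101 and 112 in QJSB and 73.8, 86.9 and 87.7 in leucogen. All libraries given cyclophosphamide lay above the highest normal library. The change was 0.64 ± 0.18 (adjusted p = 0.0220) in model against normal and 0.67 ± 0.11 (adjusted p = 0.00243) in QJSB against normal, while leucogen against normal gave 0.34 ± 0.10 (adjusted p = 0.0189), short of 1.5-fold. Of the 4 GINS genes, 0 were called in model against normal (also 0 at an unadjusted p under 0.05), Gins1 and Gins4 were lower in leucogen than in normal, and Gins2 was higher in QJSB than in leucogen. Gins3 had 20.1, 18.7 and 19.02 CPM in normal, 21.5, 21.7 and 26.1 in model, 21.2, 25.98 and 22.7 in QJSB and 19.9, 20.6 and 24.4 in leucogen and was called nowhere. Mcm10, an initiation factor, had 78.9, 88.9 and 81.4 CPM in normal, 77.7, 82.1 and 88.4 in model, 88.2, 69.3 and 71.7 in QJSB and 64.3, 62.5 and 65.2 in leucogen and a change of 0.00 ± 0.12 (adjusted p = 0.991) in model against normal, the smallest of its role. Mcm8, a relative of the ring that acts in recombination repair, had 26.6, 31.5 and 23.2 CPM in normal, 27.0, 23.9 and 25.7 in model, 21.5, 14.3 and 20.9 in QJSB and 23.0, 25.2 and 22.5 in leucogen. Its change of -0.45 ± 0.21 (adjusted p = 0.767) in QJSB against model was among the 3 lowest in that comparison without being called.

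**Figure D2:**
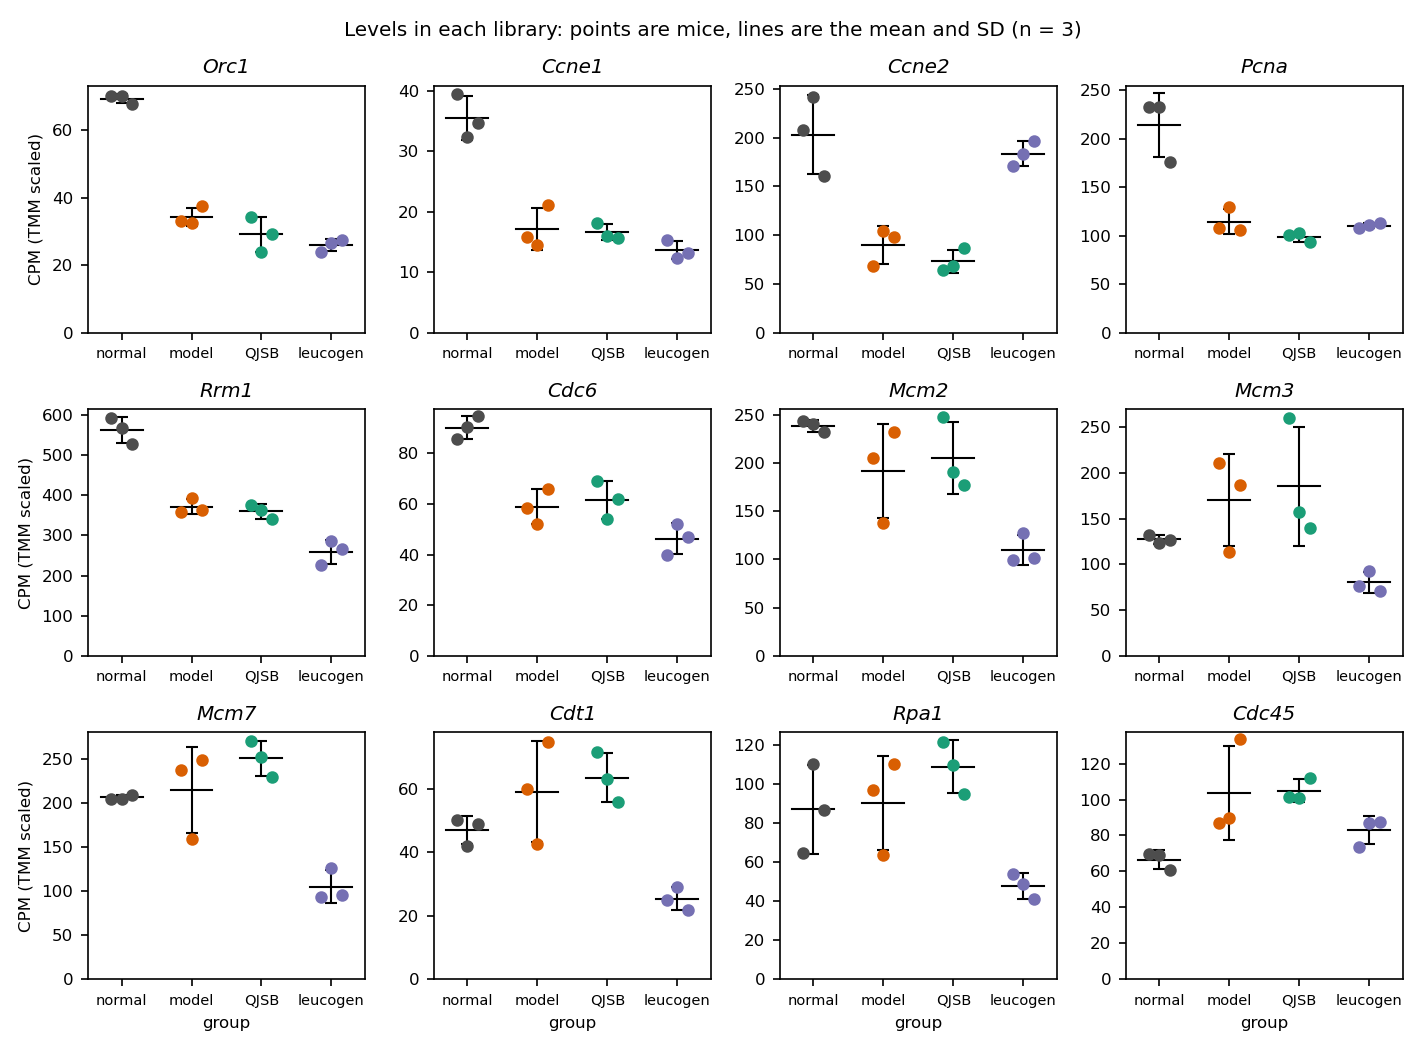
TMM-scaled CPM (y axis, linear from 0) of 12 of the genes in each library (points) by group (x axis), with the mean and SD of 3 mice. Orc1, Ccne1 and Pcna are at their highest in the 3 normal libraries, Mcm7, Cdt1 and Rpa1 at their lowest in the 3 leucogen libraries, and Ccne2 overlaps between leucogen and normal.

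Pcna, the sliding clamp (ENSMUSG00000027342, GRCm38 chromosome 2, 132249162 to 132253314), fell with cyclophosphamide and stayed low under both drugs. It had 233, 233 and 176 CPM in normal, 108, 129 and 106 in model, 100.5, 103 and 93.3 in QJSB and 108, 111 and 113 in leucogen. No library given cyclophosphamide reached the lowest normal library, and the changes against normal were -0.90 ± 0.16 (adjusted p = 0.00226) for model, -1.10 ± 0.14 (adjusted p = 0.000666) for QJSB and -0.93 ± 0.11 (adjusted p = 8.32e-05) for leucogen. The near-identical copy Pcna-ps2 carried 36720 counts over the 12 libraries against 23945 for Pcna and changed by -1.05 in model against normal, so the authors' counting may have split the reads of Pcna between them. Of the 5 loader genes, none was called in model against normal by edgeR, and 1, Rfc5, was under an adjusted p of 0.05 at a change short of 1.5-fold. Rfc1, the large subunit, had 173, 175 and 170.5 CPM in normal, 157, 185 and 185 in model, 174, 188 and 178 in QJSB and 154, 169.7 and 185 in leucogen and changed by 0.03 in model against normal. Rfc4 had 57.2, 63.1 and 44.0 CPM in normal, 34.4, 48.1 and 34.4 in model, 30.5, 24.1 and 27.2 in QJSB and 33.2, 31.5 and 37.6 in leucogen. All 3 QJSB libraries were below all model libraries, with a change of -0.53 ± 0.20 (adjusted p = 0.767), not called, and against normal the change was -0.99 ± 0.17 (adjusted p = 0.00273). Rfc5 had 33.5, 36.7 and 35.3 CPM in normal, 50.2, 41.4 and 61.5 in model, 54.7, 58.9 and 58.9 in QJSB and 34.6, 36.8 and 36.8 in leucogen. It was higher in QJSB than in normal (0.72 ± 0.11, adjusted p = 0.00143) and than in leucogen (0.65 ± 0.12, adjusted p = 0.00657), whereas leucogen and normal overlapped. With the GC trend removed, neither call of Rfc5 passed, at 0.55 against normal and 0.45 against leucogen. Exons of Rfc4 overlap those of Eif4a2 on the other strand, whose counts were 966% of those of Rfc4 and which changed by -0.59 in QJSB against normal.

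Of the 9 polymerase and primase genes, Pola1, the catalytic subunit of polymerase alpha, and Pold1 and Pold2 of polymerase delta were called. Their calls in QJSB against leucogen did not pass with the GC trend removed. Pola1 (ENSMUSG00000006678, GRCm38 chromosome X, 93304767 to 93632155) had 441, 469 and 399 CPM in normal, 258, 327 and 218 in model, 229, 166 and 193 in QJSB and 317, 283 and 351 in leucogen. Its level was lower than in normal both in model (-0.70 ± 0.17, adjusted p = 0.0101) and in QJSB (-1.14 ± 0.15, adjusted p = 0.000757). It was lower in QJSB than in leucogen (-0.71 ± 0.16, adjusted p = 0.0135). QJSB against model was not called for Pola1, and the libraries of these groups overlapped. Pola2, its partner subunit, was called nowhere, and the ratio of Pola1 to Pola2 in CPM within a library, looked at after the values were seen, was 7.70 to 8.82 in normal, 3.15 to 3.60 in QJSB, 6.86 to 10.9 in leucogen and 3.04 to 7.89 in model. This ratio was not corrected for GC content, which was 41.8% in transcripts of Pola1 and 54.3% in those of Pola2. With the GC trend removed, QJSB against leucogen was -0.22 for Pola1 and 0.22 for Pola2. Pold1, the catalytic subunit of polymerase delta, had 55.1, 51.9 and 59.1 CPM in normal, 57.1, 38.8 and 67.6 in model, 60.3, 54.4 and 50.1 in QJSB and 32.9, 33.1 and 28.8 in leucogen. The 3 leucogen libraries lay below all others, and the change of leucogen against model was -0.78 ± 0.20 (adjusted p = 0.0224). Pold2 had 8.04, 6.58 and 7.65 CPM in normal, 14.1, 8.50 and 19.9 in model, 18.6, 11.3 and 9.25 in QJSB and 5.40, 8.04 and 5.18 in leucogen. Its spread in model was the widest of the 49 genes, with a coefficient of variation of 40.2%. Its changes were 0.94 ± 0.30 (adjusted p = 0.0334) in model against normal and -1.18 ± 0.32 (adjusted p = 0.0271) in leucogen against model. Pold3, Pole, Pole2, Prim1 and Prim2 were called in no comparison, and the edgeR adjusted p of Prim1 was 0.0295 in model against normal at a change of -0.44. Pole2 and Pole encode subunits of polymerase epsilon and the primase genes the subunits that make the RNA primer.

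Replication protein A, which coats single-stranded DNA, is made of the products of Rpa1, Rpa2 and Rpa3, of which Rpa1 and Rpa2 were called lower in leucogen than in model and Rpa3 was not. Rpa1 (ENSMUSG00000000751, GRCm38 chromosome 11, 75298166 to 75348324) had 64.4, 109.8 and 86.3 CPM in normal, 96.5, 63.4 and 110.2 in model, 121, 109.8 and 94.6 in QJSB and 54.0, 48.6 and 40.9 in leucogen. The 3 leucogen libraries lay below all others, and the changes were -0.91 ± 0.21 (adjusted p = 0.0150) against model and -0.84 ± 0.20 (adjusted p = 0.00850) against normal. Rpa2 was lower in leucogen than in model, with 27.9 to 31.7 CPM against 49.5 to 56.1 CPM. Rpa3 had 25.0, 25.9 and 18.4 CPM in normal, 16.9, 23.2 and 15.3 in model, 15.5, 16.3 and 19.2 in QJSB and 21.99, 21.0 and 24.6 in leucogen, with a change of 0.29 ± 0.20 (adjusted p = 0.293) in leucogen against model that was not called. Fen1, which trims the ends of lagging strand fragments, had 15.8, 23.3 and 36.9 CPM in leucogen and 51.2, 39.3 and 52.7 CPM in model. Its change of -0.91 ± 0.29 (adjusted p = 0.0476) was lost in 8 of 14 alternatives. Lig1, which seals those fragments, had 107, 117 and 112 CPM in normal, 102, 98.2 and 135 in model, 127, 153 and 142 in QJSB and 77.0, 89.7 and 78.3 in leucogen. It was higher in QJSB than in leucogen (0.76 ± 0.13, adjusted p = 0.00544), and its change of 0.32 ± 0.18 (adjusted p = 0.767) was the highest of the 49 genes in QJSB against model, without being called.

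Of the genes of nucleotide supply, Rrm1 fell with cyclophosphamide and Rrm2 was not called in any comparison. Rrm1 (ENSMUSG00000030978, GRCm38 chromosome 7, 102441695 to 102469771) had 592, 568 and 527 CPM in normal, 359, 393 and 362 in model, 377, 363 and 340.5 in QJSB and 227, 286 and 265 in leucogen. The normal libraries lay above all others and the leucogen libraries below all others. The changes were -0.59 ± 0.12 (adjusted p = 0.00427) in model, -0.63 ± 0.11 (adjusted p = 0.00305) in QJSB and -1.10 ± 0.10 (adjusted p = 1.10e-05) in leucogen, each against normal. With the GC trend removed, those of model and QJSB were -0.47 and -0.38, short of 1.5-fold. Rrm2, the small subunit that is made in S phase, had 327, 319 and 310.4 CPM in normal, 211, 202 and 330.3 in model, 273, 346 and 301 in QJSB and 188, 238 and 209.9 in leucogen, with model 3 near the normal level. Tk1, the thymidine kinase of dividing cells, had 80.5, 79.7 and 91.2 CPM in normal, 58.3, 51.9 and 62.6 in model, 66.2, 71.7 and 56.9 in QJSB and 52.9, 51.2 and 47.9 in leucogen. All libraries given cyclophosphamide lay below the normal ones, and the change of -0.54 ± 0.13 (adjusted p = 0.0103) in model against normal was short of 1.5-fold, while leucogen against normal passed (-0.70 ± 0.10, adjusted p = 0.000197). An exon of Tk1 overlaps Afmid on the other strand, whose counts over all libraries were 9.42% of those of Tk1. Mean Afmid levels were 18.3 CPM in normal, 1.74 in model, 2.56 in QJSB and 2.50 in leucogen. Afmid changed by -3.38 in model, -2.82 in QJSB and -2.84 in leucogen, each against normal. The part of Afmid reads in the counts of Tk1 was not tested. Tyms, thymidylate synthase, had 96.9, 108 and 92.5 CPM in normal, 71.7, 89.7 and 71.8 in model, 71.2, 65.0 and 65.1 in QJSB and 100.3, 81.5 and 92.5 in leucogen. It was the gene with the third lowest change in QJSB against leucogen (-0.47 ± 0.13, adjusted p = 0.0293), short of 1.5-fold. Dut, which keeps uracil out of DNA by splitting dUTP, had 66.3, 71.4 and 56.0 CPM in normal, 55.4, 55.7 and 72.7 in model, 70.3, 59.0 and 53.7 in QJSB and 43.7, 38.6 and 38.5 in leucogen. The 3 leucogen libraries lay below all others, with a change of -0.60 ± 0.16 (adjusted p = 0.0224) against model.

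None of the 3 chromatin genes was called in the 6 comparisons, while each was called in at least 1 alternative fit. Chaf1a and Chaf1b encode subunits of the chromatin assembly factor that places histones on new DNA. Chaf1b had 31.9, 26.6 and 32.1 CPM in normal, 31.8, 33.4 and 40.1 in model, 44.4, 38.5 and 34.7 in QJSB and 24.9, 28.8 and 24.8 in leucogen, and its change in model against normal was 0.22 ± 0.15 (adjusted p = 0.275). Uhrf1, which guides DNA methylation to newly made strands, had 261, 267 and 249 CPM in normal, 230.3, 187 and 332 in model, 284, 243 and 236 in QJSB and 157, 194 and 162 in leucogen. Its change of -0.58 ± 0.09 (adjusted p = 0.000549) in leucogen against normal was just short of 1.5-fold, and with DESeq2 or with DESeq2 size factors, among others, it was called. At an edgeR adjusted p under 0.05 without the 1.5-fold minimum, all 3 chromatin genes were higher in QJSB than in leucogen, by 0.50 to 0.56. By that rule 15.5% of all genes were higher. With the GC trend removed, none of the 3 passed it in edgeR. The changes were then 0.21 for Chaf1a (adjusted p = 0.233), 0.27 for Chaf1b (adjusted p = 0.199) and 0.27 for Uhrf1 (adjusted p = 0.186).

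The genes of entry into S phase held some of the widest changes. Ccne1 (ENSMUSG00000002068, GRCm38 chromosome 7, 38097984 to 38107534) had 39.4, 32.3 and 34.6 CPM in normal, 15.8, 14.5 and 21.1 in model, 18.1, 16.0 and 15.7 in QJSB and 15.3, 12.4 and 13.1 in leucogen. All libraries given cyclophosphamide were below the normal ones, with changes of -1.04 ± 0.18 (adjusted p = 0.00225) in model, -1.08 ± 0.14 (adjusted p = 0.000743) in QJSB and -1.36 ± 0.14 (adjusted p = 2.23e-05) in leucogen, each against normal. Ccne2, the other cyclin E gene (ENSMUSG00000028212, GRCm38 chromosome 4, 11191351 to 11204779), fell in model and QJSB and was not called in leucogen against normal, with 208, 241 and 160.1 CPM in normal, 67.8, 104 and 97.8 in model, 64.3, 68.6 and 86.3 in QJSB and 170.5, 183 and 196 in leucogen. The leucogen libraries overlapped the normal ones and lay above all model and QJSB libraries. The changes were -1.17 ± 0.21 (adjusted p = 0.00262) in model against normal, 1.03 ± 0.18 (adjusted p = 0.00552) in leucogen against model and -1.35 ± 0.16 (adjusted p = 0.00285) in QJSB against leucogen. Within a library, the ratio of Ccne2 to Ccne1 in CPM, looked at after the values were seen, was 11.1 to 14.9 in leucogen and 3.55 to 7.47 over the libraries of the other groups. This ratio was not corrected for GC content, which was 42.3% in transcripts of Ccne2 and 52.1% in those of Ccne1. With the GC trend removed, leucogen against model was 0.76 for Ccne2 and -0.15 for Ccne1. The longest exon overlap of Ccne2 with Ints8, on the opposite strand, was 474 bases, and Ints8 changed the same way, by -0.64, 0.47 and -0.68 in these comparisons. Whether the authors counted by strand is not given in the sources used here, and the part of Ints8 reads in the counts of Ccne2 was not tested. E2f1, a factor that switches on replication genes, had 30.3, 28.4 and 30.6 CPM in normal, 26.6, 19.6 and 27.6 in model, 28.0, 25.1 and 23.6 in QJSB and 24.4, 23.6 and 23.3 in leucogen and was called in no comparison.

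Other genes of the same processes, from lists that do not hold the 49, are given here for context. Of 34 further replication genes, 2 were called higher and 7 lower in model against normal, and 2 higher and 2 lower in leucogen against model. Over all genes the shares called higher and lower were 16.1% and 19% in the first of these comparisons and 11.6% and 11.5% in the second, and they are the background for each list here. The largest changes were those of Dna2, a nuclease and helicase (0.93 ± 0.11, adjusted p = 0.000342), and Donson, a replication fork protein (-0.89 ± 0.17, adjusted p = 0.00318), in model against normal, and of Cdc7, the kinase that activates origins (0.81 ± 0.20, adjusted p = 0.0174), and Rnaseh2a (-1.11 ± 0.20, adjusted p = 0.00688) in leucogen against model. Top2a, which untangles copied DNA, changed by -0.61 ± 0.14 (adjusted p = 0.00770) in model against normal. Of 15 further genes of deoxynucleotide supply, 3 were called higher and 4 lower in model than in normal, and 1 higher and 4 lower in leucogen than in model. Rrm2b, the p53-dependent small subunit of ribonucleotide reductase, had 134, 129.5 and 124 CPM in normal, 34.5, 41.6 and 34.3 in model, 25.97, 32.3 and 38.5 in QJSB and 50.4, 65.2 and 67.1 in leucogen and changed by -1.81 ± 0.13 (adjusted p = 3.70e-05) in model against normal and 0.73 ± 0.16 (adjusted p = 0.0134) in leucogen against model. The ratio of Rrm2 to Rrm2b in CPM within a library, looked at after the values were seen, was 2.45 to 2.50 in normal, 4.85 to 9.62 in model, 7.81 to 10.7 in QJSB and 3.13 to 3.73 in leucogen. This ratio was not corrected for GC content. Nme2, a nucleoside diphosphate kinase, was higher in model than in normal (1.67 ± 0.14, adjusted p = 6.30e-05), and Shmt2, a mitochondrial enzyme of folate metabolism, was lower in leucogen than in model (-1.94 ± 0.37, adjusted p = 0.0116).
The enzymes that build purines and pyrimidines from small precursors come next. All 18 genes of this list had changes above 0 in model against normal (median 0.51), and 7 were called higher and 0 lower, with 0 lower also at an unadjusted p under 0.05. With leucogen, 12 of the 18 were called lower than in model and 0 higher, with a median of -0.69. Against normal, 1 was called higher and 2 lower in leucogen, beside 17.8% and 19.8% of all genes. Over all genes, 16.1% were called higher in model against normal and 11.5% lower in leucogen against model. Cad, the enzyme that starts pyrimidine synthesis, had 56.1, 48.8 and 50.2 CPM in normal, 90.8, 43.2 and 96.5 in model, 130.2, 49.2 and 46.1 in QJSB and 32.0, 22.7 and 19.3 in leucogen. Its change in leucogen against model was -1.63 ± 0.33 (adjusted p = 0.0115). Adssl1, an adenylosuccinate synthase, had the largest rise in model against normal (1.65 ± 0.25, adjusted p = 0.00133), and the lowest change was that of Ppat, the first enzyme of purine synthesis (0.13 ± 0.16, adjusted p = 0.529). In leucogen against model the change of Ctps2, a CTP synthase, was the highest (0.11 ± 0.14, adjusted p = 0.573). Of 27 genes that control the passage from G1 to S phase, 3 were called higher and 9 lower in model than in normal, and 0 higher and 5 lower in leucogen than in model. Cdk6, a G1 kinase, rose (1.84 ± 0.22, adjusted p = 0.000352), while E2f2, an E2F factor with high levels in erythroid precursors, fell (-2.11 ± 0.18, adjusted p = 7.86e-05). Cdkn1a, the cell cycle inhibitor p21, changed by -0.88 ± 0.25 (adjusted p = 0.0305) in leucogen against model, and Cdk4 by -1.07 ± 0.21 (adjusted p = 0.00869). Rb1, the retinoblastoma gene, was called lower in model (-1.83), QJSB (-1.56) and leucogen (-1.24), each against normal. In leucogen against model the change of Rb1 was 0.58 ± 0.15 (adjusted p = 0.0189), short of 1.5-fold. None of the genes of these 4 lists was called in QJSB against model by edgeR. In QJSB against leucogen, 4 of the 34 further replication genes were called higher and 2 lower, 3 and 1 of the 15, 7 and 0 of the 18 and 5 and 0 of the 27, beside 12.9% and 11.7% of all genes.

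Marker levels of marrow cell types also differed between groups. The summed CPM of 14 erythroid markers was 18303 to 19421 in normal, 282 to 1207 in model, 257 to 723 in QJSB and 425 to 810.0 in leucogen, and all 14 were called lower in model. For 14 pre-B markers the sum was 2136 to 2334 in normal, 39.3 to 318 in model, 20.7 to 76.5 in QJSB and 24.7 to 41.1 in leucogen, with Vpreb3 at 0 in all QJSB libraries and Vpreb2 and Vpreb3 at 0 in all leucogen libraries. The sum of 8 promyelocyte markers was 842 to 1043 in normal, 6857 to 9806 in model, 8531 to 9300.5 in QJSB and 3705 to 4829 in leucogen, and 7 of the 8 were called higher in model and 5 lower in leucogen than in model. Late neutrophil markers (14 genes) summed to 13320.2 to 13864 in normal, 5339 to 12122 in model, 5541 to 25529.9 in QJSB, where QJSB 1 was the lowest, and 20936 to 28440.1 in leucogen. Of these 14, 7 were called higher and 0 lower in leucogen than in model. Stem and progenitor markers (10 genes) summed to 182 to 214 in normal, 271 to 459 in model, 277 to 445 in QJSB and 187 to 200.3 in leucogen. Macrophage markers (10 genes) summed to 590 to 654 in normal, 403 to 575 in model, 425 to 559 in QJSB and 327 to 366 in leucogen, and T and NK cell markers (10 genes) to 81.5 to 105 in normal, 106 to 134 in model, 108 to 156 in QJSB and 60.2 to 82.0 in leucogen. In model, 9 of these 10 were called lower than in normal and 1, Nkg7, which is also in the promyelocyte list, higher. Over all genes, 16.1% were called higher and 19% lower in model against normal, and 11.6% and 11.5% in leucogen against model. The 49 replication genes summed to 5316 to 5785 in normal, 4408 to 5401 in model, 4655 to 5294 in QJSB and 3599 to 3942 in leucogen. The part of these marker levels in the results for the replication genes was not tested.

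Genes of mitosis are given beside those of replication. The 10 mitotic markers summed to 6436 to 6644 CPM in normal, 2615 to 3721 in model, 2849 to 3855 in QJSB and 2807 to 3731 in leucogen, and most of the sum was Mki67, the gene of the Ki-67 antigen. Mki67 had 4936, 5130.2 and 5131 CPM in normal, 1611, 2179.6 and 2414 in model, 1763, 2598 and 2526 in QJSB and 1894, 2329 and 2619 in leucogen and changed by -1.29 ± 0.18 (adjusted p = 0.000773) in model against normal and 0.15 ± 0.21 (adjusted p = 0.623) in leucogen against model. Of the 10 genes only Mki67 and Kif11 were called in model against normal, both lower (19% of all genes were), with a median of -0.20 over the 10. In leucogen against model Plk1 and Cdc20 were called lower, beside 11.5% of all genes, and the median was -0.27.

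**Figure D3:**
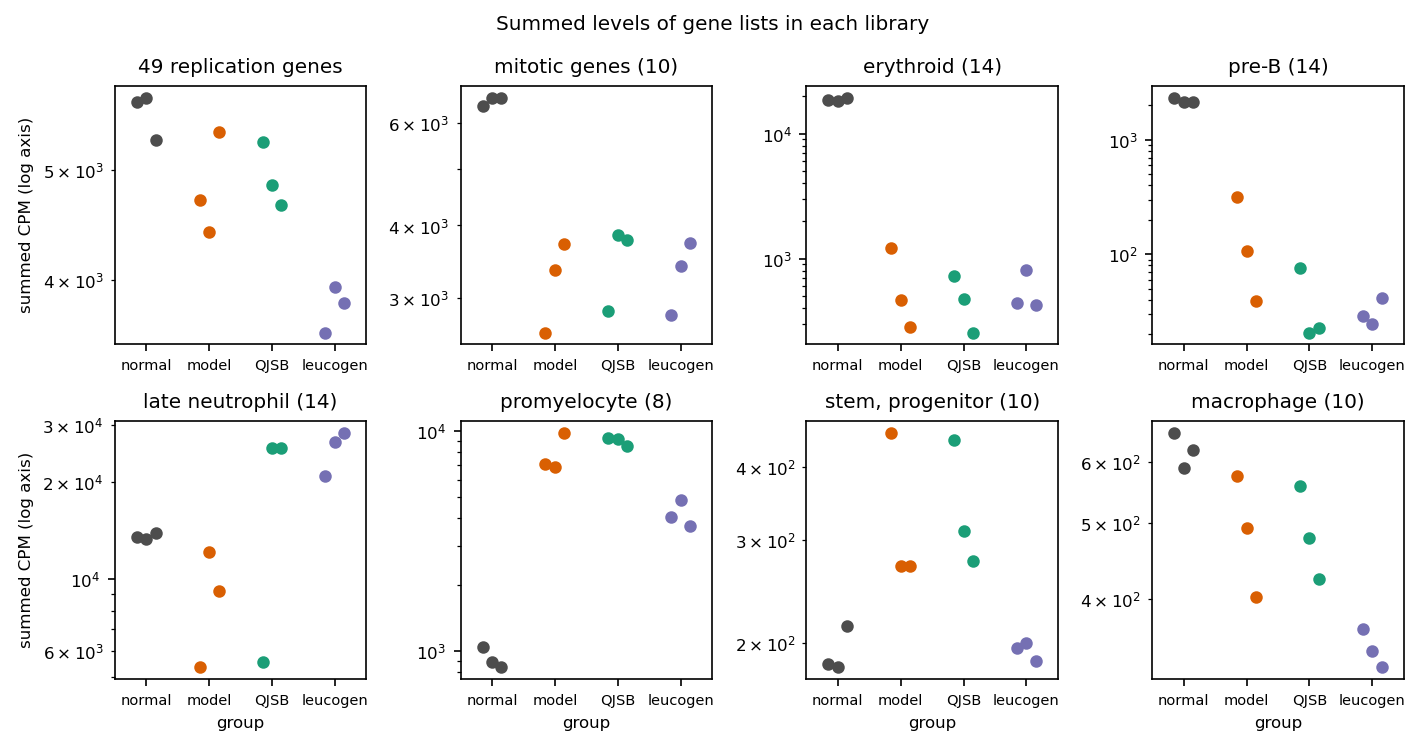
Summed TMM-scaled CPM (y axis, log scale) of the 49 replication genes and of 7 marker lists in each library, by group (x axis). The 3 leucogen libraries have the lowest sums of the 49 genes (3599 to 3942), while erythroid and pre-B sums are high in the normal libraries only.

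Changes followed the GC content of transcripts across all genes, and the replication genes shared in this. In QJSB against leucogen the 20% of genes with the lowest GC had a median change of -0.54 and the 20% with the highest 0.45. Spearman's rho of change and GC was 0.51 over 14200 genes and 0.66 over the 49, which share libraries and depth. In leucogen against model it was -0.35 over all genes and -0.56 over the 49, with medians of 0.31 and -0.34 in the lowest and highest 20% of genes. With the trend of each library removed, a step chosen after the data had been seen, QJSB against leucogen had 7 of the 49 genes higher (Cdt1, Mcm3, Mcm4, Mcm6, Mcm7, Rpa1 and Rrm1) and 2 lower (Ccne2 and Tyms), beside 13.3% of all genes called, and the median of the 49 was 0.30. Of the 15 calls without this step, 6 were among these 9. Leucogen against model had 9 genes lower and Ccne2 higher, with a median of -0.31, beside 19.7% of all genes called, and 7 of the 12 calls were shared. Pola1 in QJSB against leucogen moved from -0.71 to -0.22 (edgeR adjusted p = 0.319 with the trend removed). In model against normal Spearman's rho was 0.13 over all genes and 0.51 over the 49. With the trend removed, 2 were called higher and 6 lower there, beside 34.2% of all genes. Of the 9 calls 7 were shared, and Pola1 and Rrm1 were lost. In leucogen against normal 21 were called lower, beside 36.9% of all genes called, with 17 of 19 shared. The part of GC content in these results was not tested beyond these fits.

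**Figure D4:**
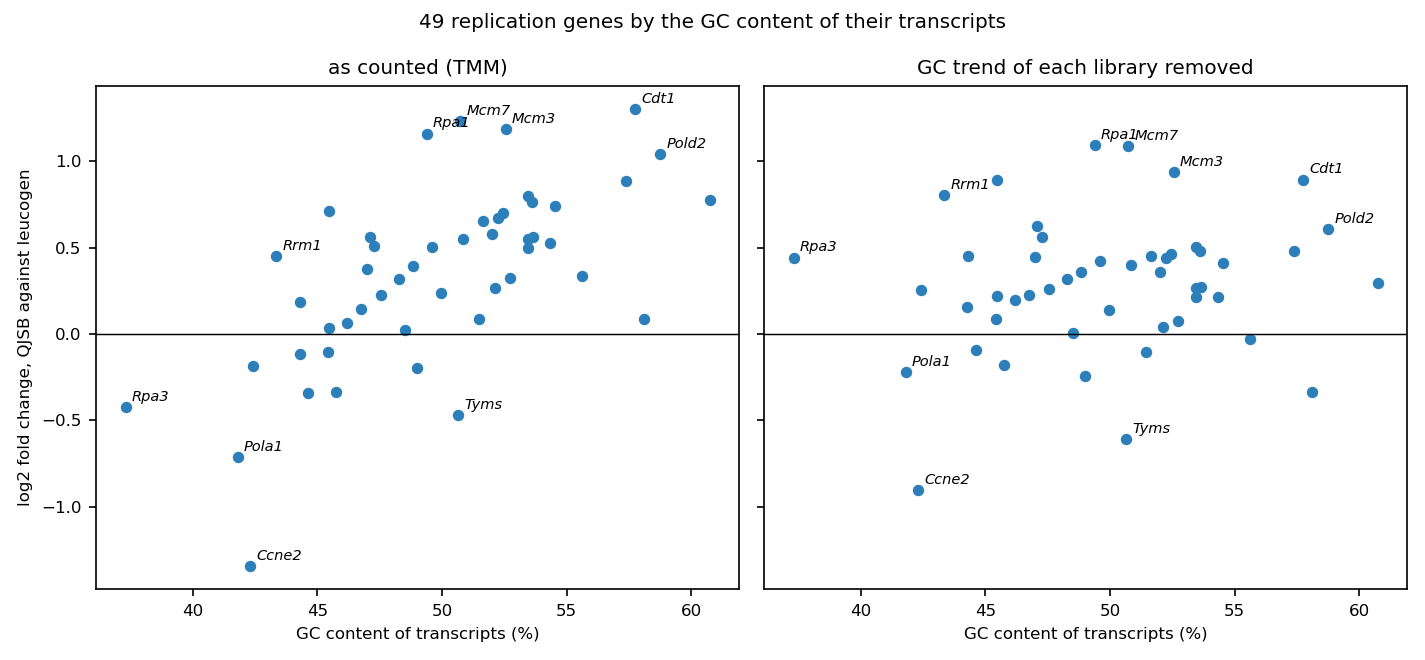
Log2 fold change of QJSB against leucogen (y axis) by the GC content of transcripts in percent (x axis) for the 49 genes, with TMM scaling (left) and with the GC trend of each library removed (right). On the left the points rise with GC content (Spearman's rho 0.66), and on the right Cdt1, Mcm3, Mcm7 and Rpa1 remain among the highest and Ccne2 the lowest.

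Exons of 14 of the 49 genes overlap those of a gene on the opposite strand in the GENCODE M21 annotation. Beside Ccne2 and Rfc4, the neighbours with the most counts relative to their member were Vps35 at Orc6 (893% of its counts), Gse1 at Gins2 (492%) and Wsb2 at Rfc5 (62.7%). Vps35 changed by -0.66 in QJSB against normal, where Orc6 changed by -0.65. Ufd1, at Cdc45, changed by -0.12 in model against normal, where Cdc45 rose. Gse1 changed by 0.44 in QJSB against leucogen, where Gins2 changed by 0.74, and Wsb2 by 0.03, where Rfc5 changed by 0.65. Cops6 and Ap4m1, at Mcm7, changed by -0.43 and -0.26 in leucogen against model.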

How the data were processed

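The authors depleted ribosomal RNA from total femoral marrow RNA of 12 male ICR mice, 3 in each of 4 groups, and sequenced strand-specific libraries on an Illumina HiSeq. Per the authors' notes and methods, reads were filtered with Seqtk and aligned with Hisat2 2.0.4 to GRCm38.p4 (mm10), allowing 2 mismatches. The counting program, the annotation and the use of strand are not given in the sources used here. The authors deposited raw counts per gene and FPKM values, and the counts were used as deposited. The deposited FPKM served only for levels between genes. Columns were tied to groups by name, where Blank is normal, Positive leucogen, and Stilbene, by elimination, QJSB. Group means computed from these columns lay within 1% of those the authors listed for 3 comparisons, in 298, 300 and 300 of 300 genes each, whereas other columns matched at most 10.

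Genes were tested with edgeR 4.0.16 in R 4.3.3 (TMM factors, filterByExpr, robust quasi-likelihood fit) on the 6 libraries of each comparison. P-values were adjusted over all genes tested by the Benjamini-Hochberg method, and standard errors were taken as the absolute change divided by the square root of F. DESeq2 1.42.0, other scalings, no filter, a fit of all 12 libraries, a replicate block, leaving out each library and, added after the data had been seen, removal of each library's trend on GC content were alternatives. The scripts were tested on simulated data. The 49 genes and all lists were chosen with earlier results of these data known. Genes given in full were, in each role, those with the largest and smallest change of model against normal, the 3 highest and 3 lowest of the 49 in each comparison, those called against the majority and a list of hallmark genes. Orc6, Rpa2, Fen1 and the within-library ratios were chosen after their values had been seen.

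Same-numbered libraries deviated together in QJSB against model (correlations of 0.463, 0.149 and 0.107) and in QJSB against leucogen (0.194, 0.158 and 0.108), over 15310 genes. In each of the other comparisons the correlations were of mixed sign, and they ran from -0.123 to 0.129. The pairing comes from the correlations alone, since no label ties the numbers to a litter or day. Total counts of 11172547 to 18545198 gave each of the 49 genes at least 54 counts in every library.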

Additional observations from a re-analysis of the deposited data

Results flagged for a closer look

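The changes of the 2 drug groups against the same model libraries differed for 15 of the 49 genes, by the edgeR contrast of QJSB with leucogen (adjusted p under 0.05 with at least 1.5-fold, where 24.6% of all genes were called). The difference, QJSB minus leucogen on the log2 scale, was 1.30 for Cdt1, 1.23 for Mcm7, 1.18 for Mcm3, 1.16 for Rpa1 and 1.04 for Pold2. It was 0.89 for Mcm2, 0.78 for Pold1, 0.76 for Lig1, 0.74 for Gins2, 0.71 for Mcm4, 0.70 for Mcm5, 0.67 for Rpa2 and 0.65 for Rfc5. In the other direction it was -0.71 for Pola1 and -1.35 for Ccne2. With the GC trend of each library removed, 6 of these 15 were called, namely Cdt1, Mcm3, Mcm4, Mcm7, Rpa1 and Ccne2. No cause was tested.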

How the results depend on the processing

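Calls among the 49 genes kept their direction under every alternative run. In model against normal, QJSB against normal and leucogen against normal the counts stayed within 1.5 times of 9, 11 and 19, apart from 19 and 35 without the 1.5-fold minimum for the last 2. In leucogen against model, 22 genes were called with total counts and 7 with the replicate block and the GC trend removed, against 12. In QJSB against leucogen, 9 were called with the GC trend removed, 9 with the block as well and 25 without the 1.5-fold minimum, against 15. Leaving out 1 library gave 6 to 12 calls in model against normal, 5 to 16 in leucogen against model, 0 in QJSB against model, 10 to 14 in QJSB against normal, 16 to 22 in leucogen against normal and 9 to 20 in QJSB against leucogen.

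With the replicate number as a block, 9 of the 49 genes were called in model against normal and 0 in QJSB against model. There were 10 calls each in leucogen against model and QJSB against normal, 20 in leucogen against normal and 15 in QJSB against leucogen. Over all genes the block gave 4925, 18, 2735, 5151, 5357 and 3683 calls in these 6 comparisons, in the order given, against 5171, 0, 3276, 5616, 5514 and 3511 without it. Against the fits without the block, Dut and Pold2 were not called in leucogen against model, Pold2 was not called in QJSB against normal, and Uhrf1 was called in leucogen against normal. In the other 4 comparisons the correlations of same-numbered libraries were of mixed sign, and no label says what these libraries share.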
